A study of Mus musculus with 6 samples.

Results

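Carbonic anhydrases are zinc enzymes that convert carbon dioxide and water into bicarbonate and a proton, and back. The genes described here are Car2, Car3, Car4, Car5b and Car13, 5 of the 35976 rows of a gene table from primary mouse adipocytes. They were chosen from that table by symbol, from a readout of the same libraries, because Car2 was among the largest rises with siRNA to Rbm43. All 5 passed the filter on low counts, which asked for 10 normalized counts or more in 2 or more libraries.

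All cells carried loxP-flanked copies of Ppargc1a, the genotype Ppargc1a(fl/fl); this gene encodes PGC-1alpha, a coactivator of mitochondrial genes. All were infected with adenovirus, and RNA was taken after full differentiation. Each of the 3 groups had 2 libraries: the control group received GFP virus and control siRNA, the knockdown group GFP virus and siRNA to Rbm43, and the Cre-labelled group the same siRNA to Rbm43 but Cre virus, which deletes the floxed part of Ppargc1a. A Cre virus group on control siRNA was not analysed here, so the viruses are compared only under Rbm43 siRNA. The replicates are called biological duplicates, and nothing says that they came from separate animals, so tests measure the spread between these libraries.

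Adipocytes use carbonic anhydrases to supply bicarbonate to carboxylases, and the family divides by place in the cell. Car2, Car3 and Car13 encode cytosolic enzymes, Car4 encodes an enzyme anchored on the outer face of the plasma membrane, and Car5b encodes a mitochondrial enzyme. Car2 is among the fastest enzymes known and is abundant in red cells, osteoclasts and kidney. Car3 is abundant in fat and skeletal muscle and is a slow enzyme for carbon dioxide.

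Libraries held 15775398 to 21961724 reads in genes, and a normalized count is a read count divided by the size factor of its library. Rbm43, the siRNA target, had 185 and 224 normalized counts in the control and 32.5 to 53.8 in the other 4 libraries. Ppargc1a had 163 and 202 in the control, 399 and 423 in the knockdown and 463 and 469 in the Cre-labelled libraries. It was therefore not lower under the Cre label. A count over the whole gene can include exons outside the excised part, so it checks nothing, and directions below rest on the labels. The adipocyte label was matched by Adipoq at 18218 to 23077, Plin1 at 7442 to 9654 and Fabp4 at 125493 to 191083. The 10 preadipocyte and fibroblast markers summed to 568995 to 622809 per library, mostly Col1a1 at 229709 to 271898 and Col3a1 at 279733 to 317105. Of the others, Vim, Thy1 and Ly6a lay above Pdgfra, which had 6579 to 6977. Cd34, Dlk1, Pi16 and Dpp4 were far lower, at 5.20 to 326. The 7 epithelial genes, with Krt14 at 0, summed to 285 to 388, nearly all of it Krt19 at 284 to 383. In these bulk libraries, fewer cells of a type and less RNA per cell cannot be told apart.

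In the mm10 build (positions from GENCODE M21), 3 of the 5 genes share a stretch of chromosome 3. Car13 spans 14641727 to 14663002, Car3 14863512 to 14872523 and Car2 14886273 to 14900770, all on the plus strand. Car1, the red cell enzyme, lies between Car13 and Car3 on the minus strand, and the 4 genes take up 259044 bases. Car3 ends 13749 bases before Car2 begins. Car4 lies on chromosome 11 from 84957786 to 84966044 (plus strand) and Car5b on chromosome X from 163976822 to 164027997 (minus strand). No exon of the 5 genes overlaps an exon of another annotated gene on either strand.

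Promoter sequences were matched for 2 of the 5 genes, Car4 and Car5b, and are shown because Car4 lay above and Car5b below its control level in both groups with Rbm43 siRNA. Each window runs from 250 bases before to 50 bases after the RefSeq gene start (build GRCm38.p6), 5′ to 3′ on the gene's strand: chr11:84957504-84957803 on the plus strand for Car4 and chrX:164027961-164028260 on the minus strand for Car5b. Capitals mark matches to 5 motifs searched on both strands: the core promoter element TATAAA, the Sp-family element GGGCGG, the element AAGGTCA of estrogen-related receptors, which PGC-1alpha coactivates, the E-box CACGTG and the cAMP response element TGACGTCA. No 2 of these letter strings can lie within each other.
Car4: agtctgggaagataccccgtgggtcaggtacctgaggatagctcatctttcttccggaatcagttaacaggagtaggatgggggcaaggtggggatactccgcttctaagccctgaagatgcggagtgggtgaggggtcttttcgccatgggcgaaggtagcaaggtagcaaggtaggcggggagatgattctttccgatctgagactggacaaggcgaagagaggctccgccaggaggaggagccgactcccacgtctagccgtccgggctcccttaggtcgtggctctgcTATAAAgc
Car5b: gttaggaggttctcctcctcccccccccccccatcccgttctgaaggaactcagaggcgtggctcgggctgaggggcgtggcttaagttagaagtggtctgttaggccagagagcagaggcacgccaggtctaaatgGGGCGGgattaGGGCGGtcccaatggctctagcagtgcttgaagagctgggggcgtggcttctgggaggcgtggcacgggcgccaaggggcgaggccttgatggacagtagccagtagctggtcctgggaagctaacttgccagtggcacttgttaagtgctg
The Car4 window held 1 match to the core promoter element, which starts 42 bases after the gene start, and the Car5b window held 2 matches to the Sp-family element, 113 and 102 bases before it. The core promoter element was in 13.6% of 32851 promoter windows of this length and the Sp-family element in 35.7%. Neither window held the receptor motif (in 4.72% of windows), the E-box (7.15%) or the cAMP response element (1.79%). A match describes the letters only.

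Per kilobase of the transcript with the longest coding sequence, Car3 stood far above the rest of the family. Its level averaged 16867 normalized counts per kilobase over the 6 libraries, with 30 of 12578 tested genes of known length above it. Car5b followed at 526, Car13 at 300, Car4 at 234 and Car2 at 101 normalized counts per kilobase. This order held in every library, and the values of neighbours in it did not overlap within any group. The closest approach was in the Cre-labelled libraries, with Car13 at 284 and 267 and Car4 at 260 and 256 normalized counts per kilobase. Car3 alone made up 86.3% to 91.3% of the normalized counts of the 16 carbonic anhydrase genes, and 0.114% to 0.187% of all counts.

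**Figure D1:**
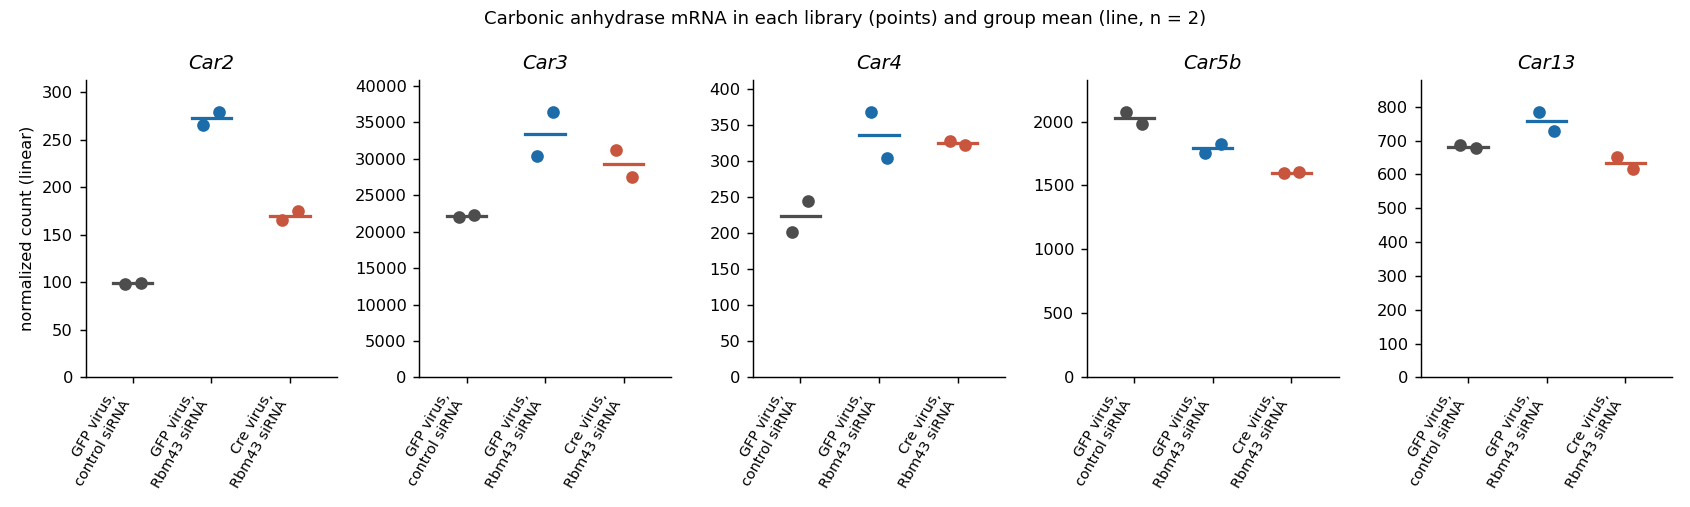
Normalized counts (linear axis from 0, a separate scale for each gene) of the 5 carbonic anhydrases in the 6 libraries, with points for libraries and lines for the mean of the 2 libraries in each group. Car2 separates all 3 groups, from 98.8 and 99.8 in the control to 266 and 280 in the knockdown, while Car5b steps down from 2077 and 1982 to 1595 and 1603.

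Car2 had the largest ratio of highest to lowest library among the 5 genes. It had 98.8 and 99.8 normalized counts in the control, 266 and 280 in the knockdown, and 165 and 175 in the Cre-labelled libraries. No 2 groups overlapped, and the Cre-labelled libraries lay between the other groups. Replicates differed by 0.989% to 5.51% of their mean, and the values rest on 82 to 300 reads per library.

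Car2 was chosen from the comparison of knockdown with control, so its values are a description and carry no test. There its log2 fold change was 1.45 ± 0.12 (standard error, limma), a 2.73-fold difference on the scale of normalized count plus 1. Of 14211 tested genes, 52 had a larger value. Among genes past the threshold with a mean count of at least 50, Car2 ranked 13, just below the cannabinoid receptor Cnr1 at 1.46 and just above the phosphatase-like gene Pald1 at 1.44. The other comparisons reuse the libraries that chose Car2, so they are described too: −0.68 ± 0.12 for Cre-labelled against knockdown, and 0.77 ± 0.12 for Cre-labelled against control. Choosing a gene for high knockdown values and low control values favours those directions.

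Per kilobase, the place of Car2 in the family depended on the group. In the control it stood at 55.3 and 55.8 normalized counts per kilobase, below Car11 at 95.8 and 86.8 and below Car9 at 61.7 and 56.6. In the knockdown it stood at 149 and 157, above Car11 at 76.6 and 75.3 and Car9 at 69.6 and 50.3. In the Cre-labelled libraries it stood at 92.5 and 97.8, with Car11 at 71.0 and 71.5.

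Markers of other cells were counted beside Car2. Of 10 erythroid genes none was tested, and Hba-a1, Hba-a2, Hbb-bs, Hbb-bt and Slc4a1 were among those at 0 in every library. The 10 summed to 2.08 and 1.22 normalized counts in the control, 5.83 and 8.40 in the knockdown and 2.94 and 1.76 under the Cre label, highest in the knockdown as Car2 was. These were few reads, mostly of Klf1 at 1 to 5 per library, with Epb42 at 0 to 3, so nothing is read from their order. The 8 osteoclast genes summed to 1932 and 1966 in the control, 1683 and 1693 in the knockdown, and 1774 and 1758 under the Cre label; none of the 8 was at 0 in every library. This sum was mostly Ctsk, the bone protease cathepsin K, at 1390 to 1635, and members differed in direction: of 5 tested, 1 rose and 2 fell in the knockdown against control, where 13.5% of all tested genes rose and 9.76% fell. The riser was Atp6v0d2, a proton pump subunit, with 9.36 and 17.0 normalized counts in the control, 27.2 and 34.5 in the knockdown and 35.2 and 25.5 under the Cre label (1.21 ± 0.33 on the log2 scale, limma adjusted p = 0.0113). Under the Cre label against control, 2 of the 5 rose and 1 fell. Ocstamp, which was not tested, had 2 and 2, then 9 and 7, then 3 and 6 reads. The 10 macrophage genes, none at 0, summed to 1733 and 1776, 1742 and 1486, and 1730 and 1820 in the same order. Lyz2 was the largest part of this sum, at 683 to 943. Of the 10, all tested, 0 rose and 3 fell in the knockdown against control, where 13.5% and 9.76% of all tested genes did. From knockdown to the Cre label 0 rose and 0 fell, where 2.62% and 5.88% did. Under the Cre label against control 0 rose and 1 fell, where 8.47% and 6.28% did. The 9 brown adipocyte genes, none at 0, summed to 8500 and 7719, then 12537 and 12930, then 7955 and 8056. The sum was highest in the knockdown, as Car2 was, but under the Cre label it lay within the control range, where Car2 lay above it. Of the 8 tested, 7 rose and 0 fell in the knockdown against control. From knockdown to the Cre label 0 rose and 7 fell, where 2.62% of all tested genes rose and 5.88% fell. Under the Cre label against control 5 rose and 2 fell, where 8.47% and 6.28% did. The part of these cells in the Car2 values was not tested.

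Car3 was higher in all 4 libraries with Rbm43 siRNA than in both controls. It had 21987 and 22358 normalized counts in the control, 30396 and 36487 in the knockdown, and 31163 and 27522 in the Cre-labelled libraries. The groups with Rbm43 siRNA overlapped, and their replicates lay 18.2% and 12.4% apart, against 1.67% in the control. The log2 fold change of knockdown against control was 0.59 ± 0.07 (standard error), given as a description because that comparison chose the genes. Leaving out knockdown replicate 2 gave 0.46, and leaving out replicate 1 gave 0.72. Car3 also marks skeletal muscle, and 10 muscle genes were counted, of which Ckm, Myh4, Myh7 and Myog were at 0 in every library. They summed to 585 and 544, then 633 and 545, then 838 and 877 normalized counts in the control, knockdown and Cre-labelled libraries. Most of this sum was Acta1 alone, at 506 to 828, and only 2 of the 10 genes passed the filter on low counts. The part of these genes in the Car3 values was not tested.

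Car13 had 686 and 678 normalized counts in the control, 786 and 728 in the knockdown, and 653 and 615 under the Cre label. The 3 groups did not overlap, and the Cre-labelled libraries were lowest. The log2 fold change of knockdown against control was 0.15 ± 0.07 (standard error). Car13 and Car3 therefore share the stretch of chromosome 3 with Car2 but not the size of its range across groups.

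Car4, the membrane enzyme, had 202 and 245 normalized counts in the control, 368 and 304 in the knockdown, and 327 and 321 under the Cre label. All 4 libraries with Rbm43 siRNA exceeded both controls, and the groups with Rbm43 siRNA overlapped. Its log2 fold change of knockdown against control was 0.59 ± 0.11 (standard error). Car4 is also an enzyme of capillary endothelium, and 10 endothelial genes, none at 0 in every library, were counted. They summed to 618 and 656 in the control, 647 and 672 in the knockdown, and 693 and 748 under the Cre label. Flt1 was the largest part of this sum, at 321 to 365. Of 8 tested, 0 passed in the knockdown against control, where 23.2% of all tested genes did. Under the Cre label against control 1 rose and 0 fell, where 8.47% and 6.28% did, and 5 of the 8 had a log2 fold change above 0. The part of these genes in the Car4 values was not tested.

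Car5b, the mitochondrial enzyme, was highest in the control. It had 2077 and 1982 normalized counts in the control, 1757 and 1822 in the knockdown, and 1595 and 1603 under the Cre label. No 2 groups overlapped. Knockdown against control gave a log2 fold change of −0.18 ± 0.05 (standard error), so Car5b was the only gene of the 5 that was lower there. In that comparison 23.2% of all tested genes passed the threshold, a share from which nothing is read for the 5 genes. The 7 Schwann cell markers, none at 0, summed to 4675 and 4743, then 3972 and 3973, then 3734 and 3779 normalized counts, the same order of groups as Car5b. Most of this sum was Pmp22, a myelin gene, at 3318 to 4258, and of 5 markers tested 1 rose and 1 fell in the knockdown against control. The riser was S100b, a calcium-binding protein gene, with 74.9 and 77.9, then 122 and 141, then 82.2 and 63.2 normalized counts (0.77 ± 0.17 on the log2 scale, limma adjusted p = 0.00198). The part of these cells in the Car5b values was not tested.

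**Figure D2:**
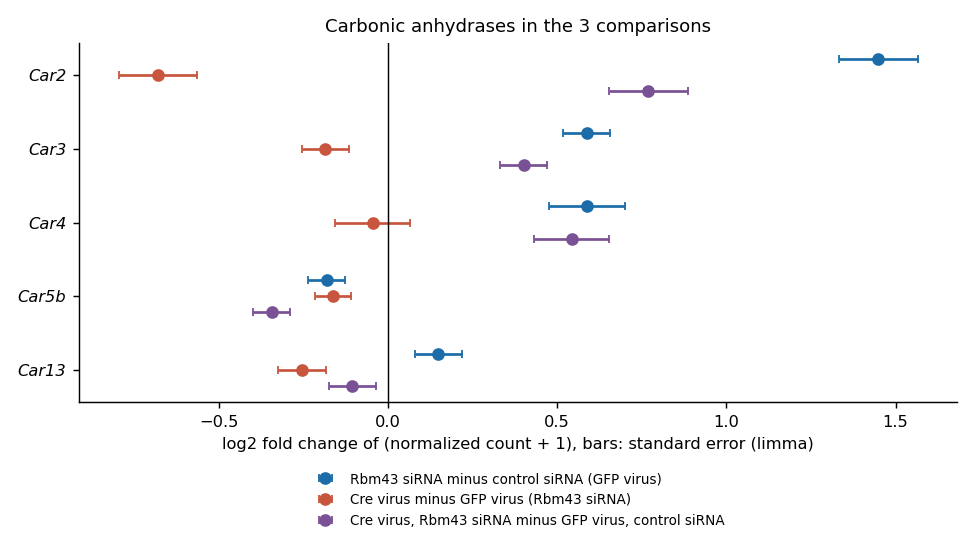
Log2 fold change of each carbonic anhydrase in the 3 comparisons (points) with its standard error from limma (bars), on the scale of log2(normalized count + 1). Car2 spans −0.68 to 1.45, and Car5b is below 0 in all 3 comparisons.

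The first comparison to be tested set the Cre-labelled libraries against the knockdown. All 5 genes had lower means under the Cre label, and Car13 fell. The log2 fold change of Car13 was −0.25 ± 0.07 (standard error; limma adjusted p = 0.0278), from 757 ± 41.0 to 634 ± 26.9 normalized counts (SD, n = 2 each). Of the 4 genes other than Car2, 1 was thus lower and 0 higher at the threshold of 0.05, where 8.5% of all tested genes passed, 5.88% lower and 2.62% higher. This call was lost without any 1 of the 4 libraries compared: adjusted p = 0.235 and 0.065 without knockdown replicates 1 and 2, and 0.128 and 0.332 without Cre-labelled replicates 1 and 2. It was also lost with DESeq2 (adjusted p = 0.0936).

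Car3, Car4 and Car5b did not pass in that comparison. Car5b differed by −0.16 ± 0.05 on the log2 scale (limma adjusted p = 0.0735; 95% interval −0.27 to −0.05). Car3 differed by −0.19 ± 0.07 (adjusted p = 0.117; 95% interval −0.33 to −0.04). Car4 differed by −0.05 ± 0.11 (adjusted p = 0.869; 95% interval −0.28 to 0.19), so the data leave room for a difference of either sign. Leaving out a control library, which changes only the estimate of the spread, brought Car5b past the threshold (adjusted p = 0.015 and 0.0145 without replicates 1 and 2) and Car3 too (0.0198 and 0.0188). Without knockdown replicate 1, Car3 passed at −0.32 (adjusted p = 0.00689) and Car4 was at 0.092 (adjusted p = 0.793).

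Cell type markers also differed between these groups. The 13 adipocyte markers, none at 0, summed to 299818 and 281953 in the control, 368141 and 376602 in the knockdown and 317344 and 319231 under the Cre label. Most of this sum was Fabp4 and Lpl, and members differed in direction. In the knockdown against control 8 rose and 3 fell, where 13.5% of all tested genes rose and 9.76% fell. Under the Cre label against control 3 rose and 5 fell, where 8.47% rose and 6.28% fell. From knockdown to the Cre label 8 of the 13 fell and 0 rose, where 5.88% of all tested genes fell and 2.62% rose. The 8 mural and smooth muscle markers, none at 0, summed to 62262 and 56885, then 65679 and 62990, then 74693 and 77785, with 5 risen and 0 fallen in that comparison. Their part in the carbonic anhydrase values was not tested.

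The second comparison to be tested set the Cre-labelled libraries against the control; these groups differ in virus and in siRNA, and the controls are those of the comparison that chose Car2. Car3 and Car4 were higher and Car5b was lower: 2 of the 4 genes other than Car2 rose and 1 fell, where 14.7% of all tested genes passed, 8.47% higher and 6.28% lower. Car3 rose from 22173 ± 262 to 29342 ± 2575 normalized counts (SD, n = 2 each), by 0.40 ± 0.07 on the log2 scale (limma adjusted p = 0.000446). Car4 rose from 223 ± 30.3 to 324 ± 3.86, by 0.54 ± 0.11 (limma adjusted p = 0.00216). Car5b fell from 2029 ± 67.8 to 1599 ± 5.98, by 0.34 ± 0.05 (limma adjusted p = 0.000166).

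Car13 did not pass, at −0.11 ± 0.07 (limma adjusted p = 0.36; 95% interval −0.25 to 0.04). Without Cre-labelled replicate 1, the calls of Car3 (0.31, adjusted p = 0.0665) and Car4 (0.53, adjusted p = 0.0587) were lost. Without a mean-variance trend, limma lost the calls of Car3, Car4 and Car5b (adjusted p = 0.137, 0.109 and 0.056). With DESeq2, Car3, Car4 and Car5b passed (adjusted p = 0.0271, 0.00979 and 5.93e-05).

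**Figure D3:**
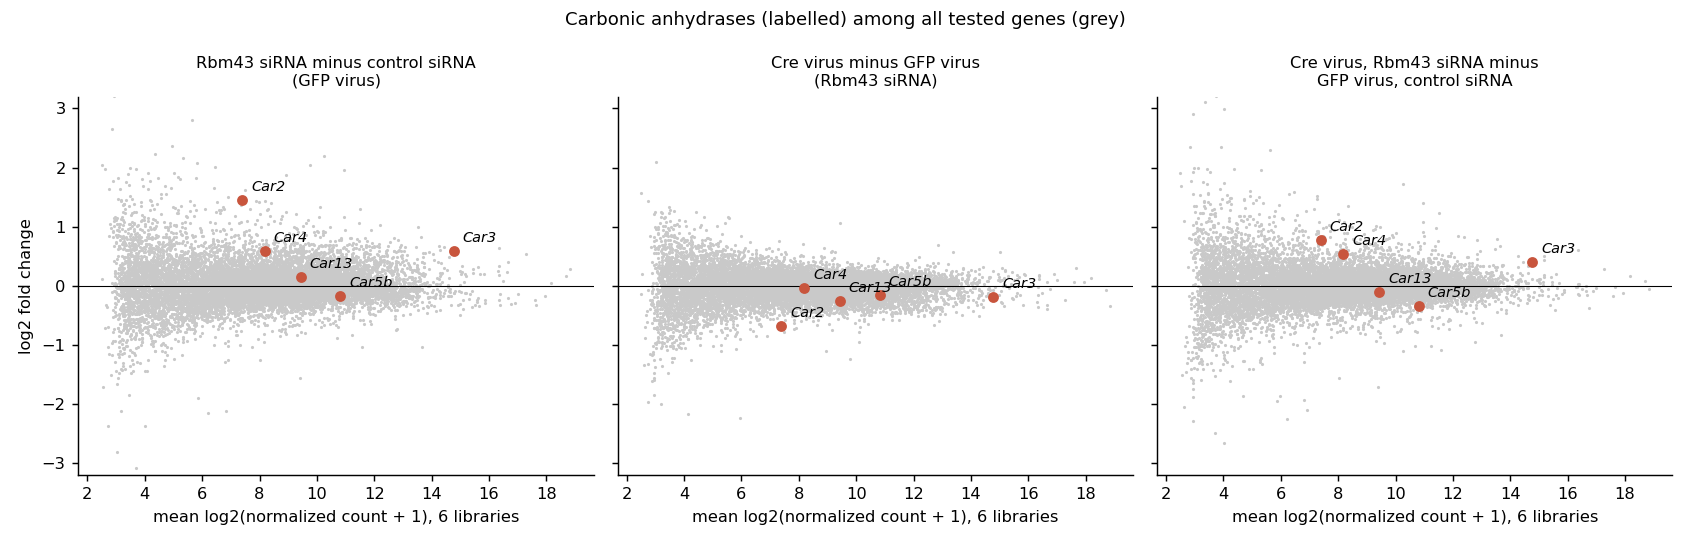
Log2 fold change against mean log2(normalized count + 1) for all 14211 tested genes (grey) with the 5 carbonic anhydrases marked, 1 panel for each comparison; 5 genes lie beyond the vertical axis. Car2 sits at 1.45, −0.68 and 0.77 in the 3 panels, and Car3 lies far to the right as an abundant mRNA.

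The other 11 carbonic anhydrase genes were far less abundant. Of these, 5 were tested: Car9 and Car12, which encode transmembrane enzymes, the secreted enzyme gene Car6, the membrane-anchored Car15, and Car11, which encodes a related protein without catalytic activity. Across the 3 comparisons, 1 call was made among the 5: Car12 was higher under the Cre label than in the control, where 8.47% of all tested genes were higher. It had 77.0 and 62.1 normalized counts in the control, 104 and 80.2 in the knockdown, and 94.9 and 132 under the Cre label, a difference from control of 0.69 ± 0.19 on the log2 scale (limma adjusted p = 0.0176). The knockdown also lay apart from the control, at 0.40 ± 0.19 (adjusted p = 0.144), and overlapped the Cre-labelled libraries (0.29 ± 0.19, adjusted p = 0.418). The call was lost without Cre-labelled replicate 2 (0.45, adjusted p = 0.306) and without control replicate 2 (0.53, adjusted p = 0.0779), and with DESeq2 (adjusted p = 0.0906).

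Car9, a gene known for its induction by low oxygen, overlapped between groups, with 125 and 114 normalized counts in the control, 141 and 102 in the knockdown, and 118 and 117 under the Cre label. Its 95% interval for knockdown against control was −0.32 to 0.33 on the log2 scale. An exon of Car9 overlaps Gm12454 on the other strand, and the strand setting of the counting was not given, so the Car9 count may be uncertain. Car11 had 152 and 138, then 121 and 119, then 113 and 113, groups that did not overlap although no comparison passed (limma adjusted p = 0.173, 0.763 and 0.0834). Car6 had 29.1 to 47.5 and Car15 7.28 to 24.3 normalized counts, and an exon of Car15 overlaps Gm20518 on the same strand, so its count is uncertain. The remaining 6 genes, Car1, Car5a, Car7, Car8, Car10 and Car14, had between 0 and 8 reads in every library. Car1, which lies between Car13 and Car3, had 1 to 5 reads.

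The reaction of these enzymes feeds carriers and carboxylases, and 3 further lists covered them. Among 8 tested genes of bicarbonate-using enzymes, 5 rose and 1 fell in the knockdown against control (median log2 fold change 0.20), where 13.5% of all tested genes rose and 9.76% fell (median −0.01). Acacb and Acaca, which encode acetyl-CoA carboxylases, had log2 fold changes of 0.95 ± 0.05 and 0.67 ± 0.05, and Pcca of propionyl-CoA carboxylase 0.29 ± 0.05 (limma adjusted p = 1.89e-10, 6.49e-09 and 0.000541). Mccc2 of leucine breakdown fell by 0.59 ± 0.07 (adjusted p = 5.43e-06). Pyruvate carboxylase (Pcx), a mitochondrial user of bicarbonate, had 11622 and 10818 normalized counts in the control and 12760 and 13308 in the knockdown, a rise of 0.22 ± 0.05 (limma adjusted p = 0.00258), in the comparison where Car5b had a log2 fold change of −0.18. Of the 5 rises, that of Mccc1 was lost under upper-quartile, total and quantile scaling (adjusted p = 0.0754, 0.0874 and 0.135) and without several single libraries (0.075 to 0.273). Limma without the trend lost those of Mccc1, Pcx and Pcca (0.164, 0.104 and 0.0636), which left 2 rises, Acacb and Acaca.

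Under the Cre label 5 of the 8 fell and 0 rose against the knockdown (median −0.19; 5.88% of all tested genes fell, with a median of 0.00). Acacb differed by −0.44 ± 0.05, Pcca by −0.36 ± 0.05, Pccb by −0.33 ± 0.07 and Acaca by −0.16 ± 0.05 (limma adjusted p = 1.77e-05, 0.000275, 0.00422 and 0.0346). The calls of Acaca and Pcx were lost without any 1 of the 4 libraries compared (adjusted p = 0.0571 to 0.441 and 0.0671 to 0.38) and under the same 3 scalings, and that of Pccb without replicate 2 of either group (0.0781 and 0.218), which left 2 or 3 of 8. Limma without the trend kept none of the 5 calls (0.119 to 0.312). Against the control, 2 rose and 2 fell (median 0.01), where 8.47% of all tested genes rose and 6.28% fell. Acaca and Acacb rose by 0.51 ± 0.05 and 0.50 ± 0.05, and Mccc2 fell by 0.81 ± 0.07 (limma adjusted p = 4.18e-07, 1.15e-06 and 2.66e-07). Pccb was also among those that fell (−0.23, limma adjusted p = 0.0272). Its call was lost without control replicate 1 (log2 fold change −0.14) or without Cre-labelled replicate 2 (−0.14).

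The list of bicarbonate transporters was drawn from the Slc4 and Slc26 families by symbol, and what each protein carries was not checked. Of its 10 tested genes, 2 rose in the knockdown against control, 1 fell from knockdown to the Cre label and 1 rose from control to the Cre label (medians −0.03, 0.07 and −0.00). With 23.2%, 8.5% and 14.7% of all tested genes called in the same comparisons, these counts are near the background. The sodium bicarbonate cotransporter Slc4a4 had 884 and 907 normalized counts in the control, 1072 and 1118 in the knockdown, and 895 and 876 under the Cre label. Its log2 fold changes were 0.29 ± 0.06 and −0.31 ± 0.06 in the first and second of these comparisons (limma adjusted p = 0.00171 and 0.00304). The second was lost without knockdown replicate 2 (adjusted p = 0.0675) and without replicate 1 or 2 of the Cre label (0.0639 and 0.0939). Slc4a11 had 22 to 54 reads, and its calls (0.72 and 0.84, limma adjusted p = 0.0407 and 0.0254) did not hold with DESeq2 (0.251 and 0.199), nor without several single libraries (0.0512 to 0.301).

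Of 14 tested proton exchangers and monocarboxylate carriers, 4 rose and 2 fell in the knockdown against control (median 0.05), where 13.5% of all tested genes rose and 9.76% fell. The lactate carrier Slc16a1 had the smallest p and rose from 2861 and 3015 to 4809 and 4482 normalized counts, with 4110 and 4234 under the Cre label. Its log2 fold changes against the control were 0.66 ± 0.05 and 0.51 ± 0.05 (limma adjusted p = 2.2e-08 and 1.42e-06). Its partner Bsg rose by 0.24 ± 0.06, while Slc9a3r1, a scaffold of sodium-proton exchangers, fell by 0.50 ± 0.11 (limma adjusted p = 0.00358 and 0.00319). The call of Bsg was lost without knockdown replicate 1 (adjusted p = 0.0884), and limma without the trend lost those of Bsg and Slc9a3r1 (0.134 and 0.0685).

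In the other comparisons of this list, 1 rose under the Cre label against the knockdown, where 2.62% of all tested genes rose: Slc9a5 by 0.48 ± 0.15 (limma adjusted p = 0.0471, and 0.0818 to 0.367 without any 1 of the 4 libraries compared). Against the control, 4 rose and 1 fell, where 8.47% and 6.28% of all tested genes did. Emb rose by 0.22 ± 0.05 and the proton channel gene Hvcn1 by 1.02 ± 0.25 (limma adjusted p = 0.00447 and 0.00879). Hvcn1 had 18 to 50 reads, and its call did not hold with DESeq2 (adjusted p = 0.11) or with limma and no filter (0.0502). Without Cre-labelled replicate 2 the calls of Emb (0.139) and Hvcn1 (0.0693) were lost, and Hvcn1 was lost without replicate 1 as well (0.114).

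**Figure D4:**
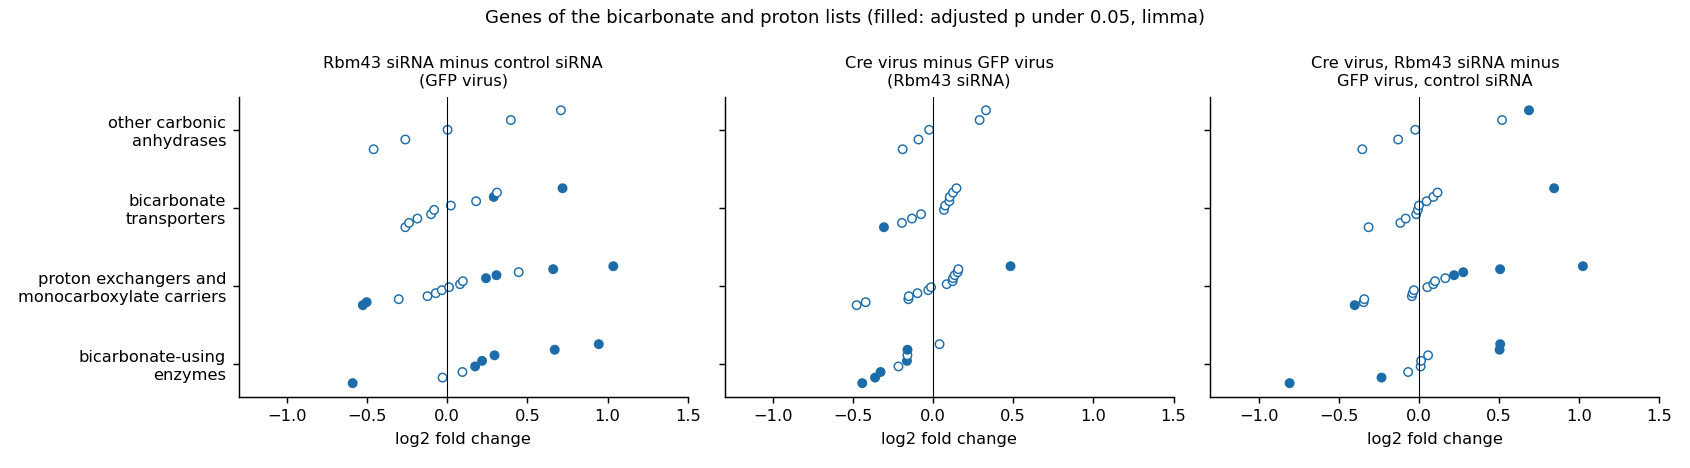
Log2 fold changes of tested genes in 4 lists, 1 panel for each comparison, with each point a gene and filled points past an adjusted p of 0.05 (limma). In the lowest row, 5 of 8 bicarbonate-using enzymes are filled to the right in the knockdown and 5 of 8 to the left under the Cre label.

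Genes with the closest pattern to each carbonic anhydrase were found by the root mean square difference of log2 values centred on the gene mean, over 6 libraries and 11636 candidate genes. The measure describes likeness in these libraries only. The closest to Car2 was Ddo, D-aspartate oxidase, with 187 and 194, then 464 and 463, then 318 and 307 normalized counts in the order of groups used above (difference 0.083). Hcn2 and Pald1 followed (0.095 and 0.096). Car3 was closest to Sox6, Tbc1d4 and Orm1 (0.048, 0.055 and 0.057).

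The closest to Car4 were Xaf1 and Isg15, both interferon-induced, and the calcium channel gene Cacna1h (differences 0.060, 0.069 and 0.070). Isg15 had 905 and 1016, then 1571 and 1295, then 1251 and 1318 normalized counts, with the replicates of each group ordered as in Car4 except under the Cre label. Car5b was closest to Apol6, Atg12 and Pmvk (0.020, 0.020 and 0.024). Car13 was closest to Nfs1, the cysteine desulfurase of mitochondria, with 866 and 865, then 979 and 909, then 816 and 783 normalized counts (difference 0.014), then to Phb2 and Gamt (0.026 and 0.027).

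**Figure D5:**
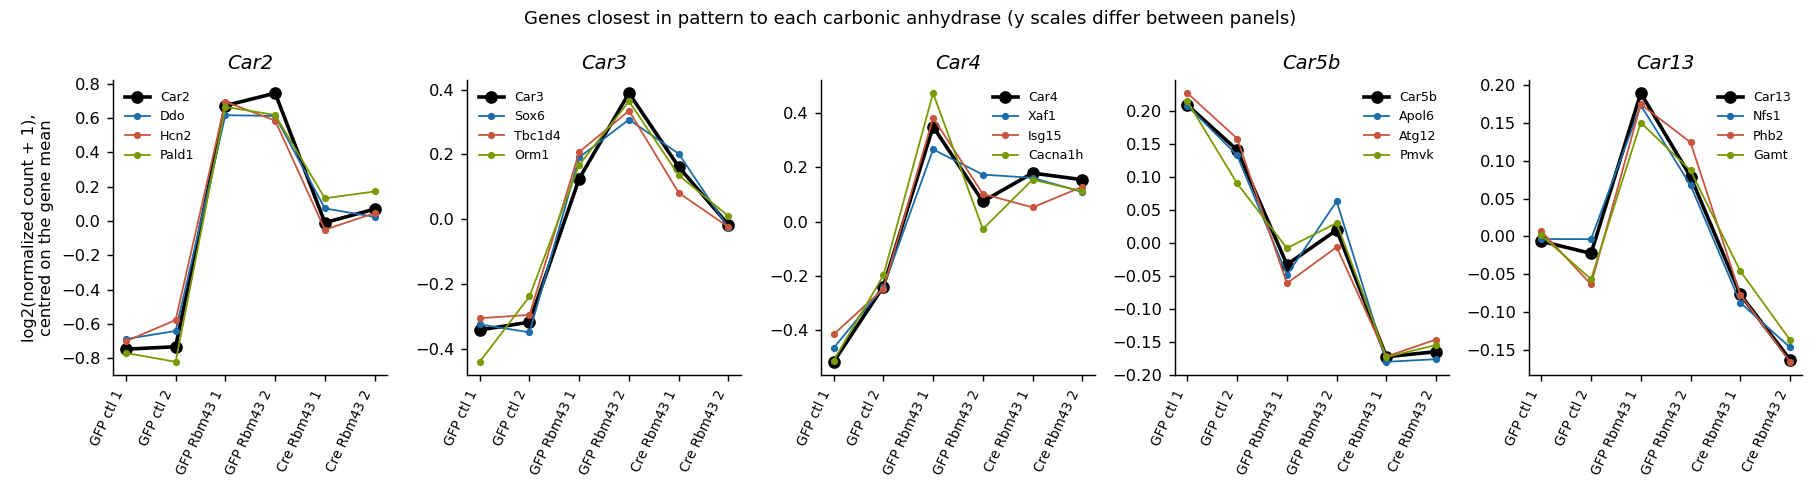
Log2(normalized count + 1) centred on the mean of each gene, in the 6 libraries, for each carbonic anhydrase (black) and the 3 genes closest to it in pattern (colours); the vertical scale differs between panels. Nfs1 tracks Car13 with a root mean square difference of 0.014, and Ddo tracks Car2 with 0.083.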

How the data were processed

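Poly(A) RNA sequencing gave 1 table of normalized counts, a signal the authors made by dividing read counts by 1 size factor per library. Per the submitters' processing notes, tools included STAR 2.7.8, fastp 0.23.2 and DESeq2 2.11.40.7, with build mm10. The gene counter, annotation and strand setting were not given in the sources used here. All deposited values were a whole number of reads times the worth of 1 read (100% within 0.01 read), and edgeR on those reads called 3263, 1336 and 2111 genes in the 3 comparisons. Genes with at least 10 normalized counts in at least 2 libraries (14211) were tested with limma 3.58.1 (R 4.3.3) on log2(normalized count + 1), with a mean-variance trend, a mean for each group fitted to the 6 libraries together (residual degrees of freedom: 3), and p-values adjusted over all genes (Benjamini-Hochberg, threshold 0.05). Fold changes on this scale understate changes of low genes.

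The 5 genes and all lists were chosen with earlier results of these data known. No test is given for Car2, or for any of the 5 genes in the comparison that chose Car2. Named in the text are the 5 genes, the detected family, Rbm43, Ppargc1a, up to 4 genes of each further list with the smallest p, and the 3 nearest patterns among genes with a mean of at least 50; Pcx, Mccc1 and the named marker genes Ctsk, Atp6v0d2, Ocstamp, Pmp22 and S100b were chosen after their values were seen, and some genes that this rule names are not reported here. Markers of Schwann, epithelial and skeletal muscle cells were also counted. Alternatives were pseudocounts of 0.5 and 5, no filter, a minimum of 50, upper-quartile, total and quantile scaling, a replicate block, 2 groups only, no trend, each library left out, and edgeR 4.0.16 and DESeq2 1.42.0 on recovered reads. The procedure was tested on simulated data. Promoters came from RefSeq (GRCm38.p6), and transcript lengths from GENCODE M21.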

Additional observations from a re-analysis of the deposited data

How the results depend on the processing

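Of 342 values of the 5 genes and their counts under other settings, 308 were rated the same. A tested value had to keep its direction and its side of the threshold. A value with no test had to keep its direction and move by no more than the spread between replicates. A count of called genes had to equal the reported count or lie close to it. Scaling and pseudocount changed no call among the 5 genes. For Cre-labelled against knockdown, Car13 missed the threshold with no filter and with limma without the trend (−0.25, adjusted p = 0.0817 and 0.194) and with DESeq2 (−0.26), which left 0 of 4 genes lower in each; with only the 2 groups compared, Car3 (−0.19, adjusted p = 0.0221) and Car5b (−0.16, adjusted p = 0.0158) passed as well, 3 of 4. The cause was not tested. For Cre-labelled against control, limma without the trend left 0 higher and 0 lower (Car3 0.40, Car4 0.54, Car5b −0.34). With each library left out, log2 fold changes ran from 0.46 to 0.72 for Car3 in knockdown against control. For Cre-labelled against knockdown they ran from −0.32 to −0.054 for Car3, −0.18 to 0.092 for Car4, −0.19 to −0.14 for Car5b and −0.31 to −0.20 for Car13 (0 to 3 genes lower). For Cre-labelled against control they ran from 0.31 to 0.49 for Car3 and 0.40 to 0.68 for Car4 (0 to 2 genes higher).

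Over all genes, 3301, 1208 and 2096 were called in the 3 comparisons. DESeq2 called 2035, 838 and 1220. No filter gave 609 and 1251 in the second and the third. Limma without the trend gave 1304, 0 and 433, with 2355 genes in the second at an unadjusted p under 0.05 (edgeR called 1336). The second also had 2070 calls with only its 2 groups, 2060 and 2067 without either control library, 457 without knockdown replicate 2, and 310 and 329 without either Cre-labelled library, which left 765 and 826 in the third. The first had 2101 without knockdown replicate 2. Total scaling moved the share of calls that were higher from 30.8% to 43.5% in the second. Replicate numbers did not pair the libraries: deviations of same-numbered libraries had correlations across genes of 0.02, −0.04 and −0.04. With the replicate block 3412, 1304 and 2214 genes were called, Car13 kept its call at −0.25, and no call among the 5 genes changed. Counts of 82 to 300 reads limit the precision for Car2.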
